A study of Mus musculus with 6 samples.

Results

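Dendritic cells that have matured and switched on Ccr7, the receptor that guides them through lymph towards draining lymph nodes, were counted and described in mouse livers at 3 stages of colorectal cancer spread. A barcode was taken as such a cell when it had at least 300 genes, under 25% of its UMIs (unique molecular identifiers, one per captured transcript) from mitochondrial genes, UMIs of at least 3 of the 5 genes Ccr7, Fscn1, Ccl22, Il4i1 and Cacnb3, and no UMI of Cd3e, Cd79a, Clec4f or Stab2, which mark T cells, B cells, Kupffer cells and sinusoidal endothelium. These measured values chose the members, which were selected on the 5 genes. The rule found 80 barcodes among 66935 that passed the first 2 criteria, of 71908 in all. They are called mature cells below, and were set against 929 type 1 dendritic cells, gated on at least 2 UMIs of Xcr1 and Clec9a together, and 530 type 2 dendritic cells, gated on at least 2 UMIs of Cd209a. Both gates also required no UMI of the other gate's genes or of Cd3e, Cd79a, Clec4f and Stab2, and mature cells were taken out of them.

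Whole livers were digested with collagenase II, depleted of erythrocytes and dead cells, and captured on the BD Rhapsody system, which reads the transcripts of single cells. The 3 groups of 2 libraries each were livers labelled macro-metastatic niche and pre-metastatic niche, both from an orthotopic mouse model of colorectal cancer, and livers labelled control. All 6 libraries, controls included, carry the cell line label CT26-GFP, a mouse colon carcinoma line made to carry a fluorescent protein; the labels give no strain, sex, age or time of sampling. The labels do not say whether the 2 replicates of a group are separate animals, so p-values measure the spread between these libraries, and fewer cells of a kind cannot be told apart from fewer of them surviving digestion.

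In background, a conventional dendritic cell in tissue takes up antigen and expresses chemokine receptors such as Ccr2. On maturation it lowers uptake and new synthesis of MHC class II, raises costimulatory molecules and survival genes through NF-kB, and rearranges its cytoskeleton with fascin, the product of Fscn1, before it leaves through lymphatics. The same programme carries brakes on T cells, such as PD-L1 (Cd274), Cd200 and Socs2, and cells in this state have also been described in tumours.

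NF-kB dimers bind DNA at sites close to a motif of GGG and TTCC with any 3 bases between them. Of the 23 genes of an NF-kB pathway list, 18 had an entry in a RefSeq promoter table of build GRCm38.p6, which gives 250 bases before to 50 bases after a start site, and 9 of the 18 held the motif on either strand in at least 1 window. It was found in 12 of their 22 windows, against 1825 of 32851 windows of all genes (5.56%), a match being a description of letters and not a shown site. 3 windows of genes that the results below turn on are printed 5′ to 3′ on the gene's own strand, with the motif or its other strand, GGAA and CCC around any 3 bases, in capitals. They are Nfkbia, which encodes the inhibitor of NF-kB (chr12:55492598-55492897, minus strand), Tnfaip3, which encodes the feedback inhibitor A20 (chr10:19015361-19015660, minus strand), and Rel, which encodes the NF-kB subunit c-Rel (chr11:23770920-23771219, minus strand).
Nfkbia: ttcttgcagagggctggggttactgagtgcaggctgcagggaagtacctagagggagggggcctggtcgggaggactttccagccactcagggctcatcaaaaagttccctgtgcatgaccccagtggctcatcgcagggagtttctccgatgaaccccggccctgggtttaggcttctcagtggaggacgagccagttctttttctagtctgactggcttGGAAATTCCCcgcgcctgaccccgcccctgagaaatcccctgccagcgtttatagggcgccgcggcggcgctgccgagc
Tnfaip3: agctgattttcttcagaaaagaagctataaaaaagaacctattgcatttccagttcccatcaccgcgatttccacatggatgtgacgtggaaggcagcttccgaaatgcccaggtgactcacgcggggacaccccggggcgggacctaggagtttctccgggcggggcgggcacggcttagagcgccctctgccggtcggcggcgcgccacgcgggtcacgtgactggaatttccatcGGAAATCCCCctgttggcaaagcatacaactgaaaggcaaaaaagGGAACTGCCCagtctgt
Rel: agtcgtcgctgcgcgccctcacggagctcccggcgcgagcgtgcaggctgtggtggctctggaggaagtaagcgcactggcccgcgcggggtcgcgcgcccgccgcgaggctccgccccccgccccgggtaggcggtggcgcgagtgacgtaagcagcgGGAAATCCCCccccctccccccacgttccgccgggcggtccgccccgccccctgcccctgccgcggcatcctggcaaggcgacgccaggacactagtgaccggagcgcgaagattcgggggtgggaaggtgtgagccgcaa
The motif begins 29 bases before the annotated start of Nfkbia, 91 bases before that of Rel, and 12 bases before and 33 bases after that of Tnfaip3. No motif search was possible for Ccr7, Relb, Cd40, Cd83 or Ccl5, which had no entry in the table.

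Genes outside the 5 markers were read to check the dendritic label. Flt3, the growth factor receptor of dendritic cells, had a UMI in 53 of 80, Zbtb46, a transcription factor of conventional dendritic cells, in 42, H2-Ab1 of MHC class II in 64, and Tmem123, a surface glycoprotein, in 79. Of other lymphoid cells little was seen in the sums over all members, with 1 UMI over 5 T cell markers, 4 over 5 B cell markers and 3 over 5 NK cell markers. The rule itself set Cd3e of the T cell, Cd79a of the B cell and Clec4f of the Kupffer cell markers to 0. Choosing members without them removes such cells, so the counts of T, B and Kupffer cell markers are no independent check of the label. Markers of other myeloid cells were more frequent, with 99 UMIs over 5 monocyte markers, 55 over 5 Kupffer cell markers and 30 over 5 neutrophil markers. The neutrophil markers stood at 113 and 132 CPM in mature cells of macro-metastatic livers, 0 and 0 in pre-metastatic and 0 and 68.5 in control livers, where CPM is the UMIs of a gene per 1000000 UMIs summed over the cells of a kind in a library. The monocyte markers, of which Chil3 was at 0, stood at 0 and 296 CPM in macro-metastatic, 0 and 161 in pre-metastatic and 254 and 22.8 in control livers, and the Kupffer cell markers at 338 and 115 CPM in macro-metastatic, 0 and 205 in pre-metastatic and 52.5 and 0 in control livers.

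A few barcodes departed from the rest. In macro-metastatic replicate 2, 1 barcode held 36450 UMIs, 19.99% of the UMIs of its library's mature cells, with 0 UMIs of Ccr7, H2-Ab1 and Flt3, and a second held 27075 UMIs (14.8%), 393 of them Lyz2, a lysozyme gene of myeloid cells. In macro-metastatic replicate 1, 1 of the 4 mature cells held 13925 UMIs, 52.3% of the sum. Of 69466 distinct barcode sequences, 2404 (3.46%) occurred in more than 1 library, 6 mature cells carried one, and none of those sequences was a mature cell in both libraries. No mature cell was called a doublet at a score of 0.25, at which 2.40% to 3.25% of each library's barcodes were.

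The 5 genes that chose the cells are given as a description. Ccr7 was detected in 79 of 80 mature cells, Cacnb3 in 73, Fscn1 in 65, Ccl22 in 59 and Il4i1 in 10. Ccr7 stood at 3491 and 1914 CPM in mature cells of macro-metastatic livers, 1375 and 1798 in pre-metastatic and 1287 and 1873 in control livers. Ccl22, a chemokine for Ccr4-bearing T cells, stood at 2778 and 960 CPM in macro-metastatic, 713 and 1701 in pre-metastatic and 1024 and 4569 in control livers. For Ccr7 both macro-metastatic values lay above the other 4, and for Ccl22 the stages overlapped. Both genes were also present at lower levels outside the gate: Ccr7 reached 472 and 300 CPM in type 2 cells of macro-metastatic livers, and Ccl22 128 and 262 CPM in type 1 cells there. Mature cells were taken out of those gates, so the lower levels follow in part from the gating. Of the 80 cells, 38 had 3 of the 5 markers, with a median of 14 summed marker UMIs, 38 had 4 and 4 had all 5. Just outside the rule, barcodes with exactly 2 markers and none of the 4 excluded genes numbered 27 and 54 in macro-metastatic, 6 and 11 in pre-metastatic and 7 and 2 in control libraries. The 4 excluded genes removed 69 of the 149 barcodes with 3 or more markers.

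Xcr1 or Clec9a, the genes of the type 1 gate, had a UMI in 25 of the 80 mature cells, Cd209a in 2, and 53 had neither. By stage, Xcr1 or Clec9a was detected in 4 of 25 mature cells of macro-metastatic, 11 of 24 of pre-metastatic and 10 of 31 of control livers. A mature cell with no UMI of these genes cannot be placed in either line by them.

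Compared with both other kinds, most costimulation and migration genes tested and many of MHC class I were higher in mature cells, and most of the genes that define the kind compared and several of the antigen-loading genes of MHC class II were lower. Sums of UMIs per library and kind were compared within libraries by edgeR's quasi-likelihood test with Benjamini-Hochberg adjustment over 5172 genes. Against type 1 cells 832 genes were higher and 939 lower in mature cells, together 34.2% of genes tested, and against type 2 cells 789 were higher and 874 lower, together 32.2%. Both comparisons called 589 higher genes, 70.8% of the calls against type 1 and 74.7% of those against type 2, and 520 lower genes, 55.4% and 59.5%; both share the mature cells. A list is described by its counts and its median log2 fold change, against a median over all genes of −0.14 versus type 1 and −0.11 versus type 2. Genes of the 3 gates are in none of the counts of lists, nor are genes whose sums were too low to test. The totals, shares and overlaps over all genes were counted with gate genes left in, and the gates themselves set the differences of those genes.

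Of 11 maturation and costimulation genes tested, 9 were higher in mature than in type 1 cells and none lower (median 2.42), and 9 were higher and 1 lower than in type 2 cells (median 1.87). Tmem123 stood at 4955 and 2341 CPM in mature cells of macro-metastatic livers, 6873 and 6384 in pre-metastatic and 7688 and 5483 in control livers, against 174 to 251 CPM in type 1 and 343 to 559 CPM in type 2 cells over the 6 libraries. The ranges did not overlap, and the log2 fold change was 4.75 (SE 0.21, adjusted p = 2.4e-12) over type 1 and 3.69 (SE 0.20, adjusted p = 6.3e-11) over type 2 cells. Il15ra, which presents interleukin-15 to T and NK cells, stood at 263 and 197 CPM in mature cells of macro-metastatic, 382 and 172 of pre-metastatic and 245 and 91.4 of control livers, and at no more than 34.4 CPM in any library of the other kinds. Its log2 fold changes were 3.69 and 4.55. Cd40, the receptor for T cell help, averaged 3.99 (SE 0.47) higher on the log2 scale than in type 1 and 3.28 (SE 0.49) higher than in type 2 cells, though 1 library, macro-metastatic replicate 1, had 1 UMI of it. Cd80, a ligand of Cd28, differed by 2.42 and 1.84. Cd86, the other Cd28 ligand, passed neither test, with log2 differences of −0.28 (adjusted p = 0.51) and 0.78 (adjusted p = 0.063).

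Il12b, the shared subunit of interleukins 12 and 23, was found in 34 of 80 mature cells. It stood at 751 and 751 CPM in mature cells of macro-metastatic livers, 2469 and 1550.2 in pre-metastatic and 1077 and 2353 in control livers, against 2.78 to 114 CPM in type 1 cells and 0 to 5.51 in type 2 cells. Every mature value lay above every other, and the log2 fold change over type 1 cells was 5.58 (SE 0.59, adjusted p = 3.3e-07).

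Some regulatory genes were higher and others were not. Of 11 tested, 6 were higher and 1 lower than in type 1 cells, and 5 higher and 2 lower than in type 2 cells. Socs2, which damps cytokine signalling, stood at 488 and 389 CPM in macro-metastatic, 458 and 237 in pre-metastatic and 604 and 754 in control mature cells, with at most 13.003 CPM in any library of type 1 or type 2 cells. Its log2 fold changes were 6.72 (SE 0.35) and 5.96 (SE 0.37). Cd274, which encodes PD-L1, differed by 3.28 and 2.30, Cd200 by 3.68 and 3.64, and Fas, a death receptor, by 4.32 and 3.70, all past the test. Cd274 was detected in 60 of the 80 mature cells, Cd200 in 46 and Socs2 in 47. Havcr2, which encodes Tim-3, was lower than in type 1 cells by a log2 value of −2.32 (SE 0.38), and its difference from type 2 cells of −0.56 did not pass (adjusted p = 0.35).

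**Figure D1:**
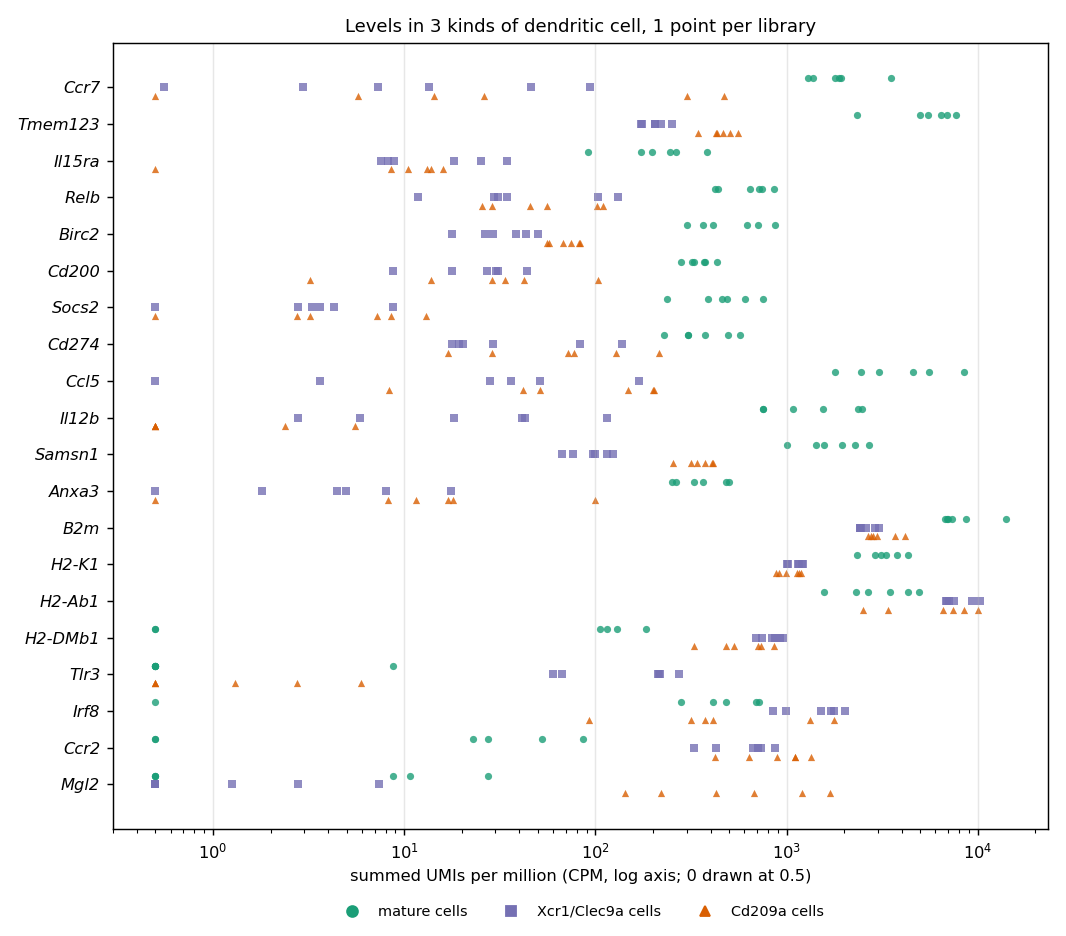
CPM of 20 genes (log axis) in mature, Xcr1/Clec9a and Cd209a cells, 1 point per library and kind, with values of 0 drawn at 0.5. Tmem123, Socs2, Ccl5 and Il12b lie above both other kinds in every library, and H2-DMb1, Tlr3 and Ccr2 lie below type 1 cells in every library; Ccr7 is a gene of the rule.

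Of 19 migration and cytoskeleton genes, 12 were higher and 3 lower in mature cells in each of the comparisons. Samsn1, an adaptor of activated leukocytes, stood at 2289.6 and 1003 CPM in mature cells of macro-metastatic, 2698 and 1421 of pre-metastatic and 1953 and 1576 of control livers, against 66.6 to 123 CPM in type 1 and 256 to 414 CPM in type 2 cells. Its log2 fold changes were 4.21 (SE 0.24) and 2.46 (SE 0.22). Anxa3, an annexin, differed by 5.97 and 4.21, Marcksl1, an actin-binding substrate of protein kinase C, by 4.12 and 2.91, and Swap70, a Rac-binding protein, by 3.51 and 2.54. The lower members were Itgb2, the beta 2 integrin chain (−2.69 and −2.59), Anxa1 (−2.26 and −1.27) and Rhoh, a small GTPase of blood cells (−3.36 and −4.46).

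Chemokines and cytokines did not move as a block: of 13 tested, 4 were higher and 2 lower than in type 1 cells, and 4 higher and 6 lower than in type 2 cells. Ccl5, a chemokine for effector T cells, stood at 8445 and 4568 CPM in mature cells of macro-metastatic, 3029 and 1787 of pre-metastatic and 5525 and 2444 of control livers. In type 1 cells it lay between 0 and 169 CPM and in type 2 cells between 8.36 and 203 CPM, and the log2 fold changes were 6.52 (SE 0.56) and 5.68 (SE 0.55). Ccl17, a second Ccr4 ligand, differed by 4.12 and 2.61, but 102 of its UMIs lay in pre-metastatic replicate 2 and the other libraries held 2 to 21. Cxcl16, which attracts Cxcr6-bearing T cells, differed by 2.22 and 2.65. The inflammatory genes Il1b (−1.22 and −1.78) and Ccl4 (−1.51 and −2.75) were lower than in both kinds, and Tnf was lower than in type 2 cells (−2.32, SE 0.41) with a difference from type 1 cells of −1.03 that did not pass (adjusted p = 0.078).

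Among 17 cytokine and chemokine receptors, 8 were higher and 2 lower than in type 1 cells, and 6 higher and 5 lower than in type 2 cells. Ccr2, which keeps monocytes and dendritic cells homing to inflamed tissue, stood at 0 and 27.4 CPM in mature cells of macro-metastatic, 0 and 86.1 of pre-metastatic and 52.5 and 22.8 of control livers. It stood at 328 to 867 CPM in type 1 and 424 to 1336 CPM in type 2 cells, and the log2 differences were −3.84 (SE 0.32) and −4.30 (SE 0.32). Ifngr1, a chain of the interferon gamma receptor, was lower as well (−2.996 and −1.88), while the interleukin receptor chains Il21r (4.92 and 2.04) and Il7r (3.57 and 0.93) were higher. Flt3 did not pass the test against type 1 cells (log2 difference 0.13, adjusted p = 0.68) and was higher than in type 2 cells by 0.94 (SE 0.23).

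NF-kB genes set mature cells apart from type 1 cells more often than from type 2 cells in these counts. Of 20 tested, 17 were higher and none lower than in type 1 cells (median 1.63), and 8 were higher and 1 lower than in type 2 cells (median 0.53). Relb, the subunit of the noncanonical pathway, stood at 863 and 439 CPM in mature cells of macro-metastatic, 713 and 420 of pre-metastatic and 744 and 640 of control livers, against 11.8 to 130 CPM in type 1 and 25.4 to 109 CPM in type 2 cells. Its log2 fold changes were 3.66 (SE 0.35) and 3.48 (SE 0.37). Birc2, an inhibitor of apoptosis in the same pathway, differed by 3.96 and 3.07, Traf1 by 2.80 and 2.31, Map3k14, the kinase NIK, by 1.96 and 2.03, and Rel by 2.10 and 1.92. Nfkbia and Tnfaip3 were higher than in type 1 cells (1.2 and 1.45) and did not pass against type 2 cells (0.22 with adjusted p = 0.68, and 0.14 with adjusted p = 0.75).

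The genes of MHC class II and those of class I went opposite ways. Of 12 class II genes, 1 was higher and 7 lower than in type 1 cells (median −1.03), and none was higher and 6 lower than in type 2 cells (median −0.80). H2-DMb1, a chain of the peptide-loading chaperone H2-DM, had 0 and 115 CPM in mature cells of macro-metastatic, 0 and 129 of pre-metastatic and 105 and 183 of control livers. It had 691 to 955 CPM in type 1 and 327 to 855 CPM in type 2 cells, with log2 differences of −2.96 (SE 0.35) and −2.39 (SE 0.36). H2-DMa (−2.60 and −2.36), Ciita, the master activator of class II transcription (−1.81 and −1.52), and Marchf1, a ligase that removes class II from the surface (−3.14 and −2.03), were lower too. H2-Ab1 was lower than in type 1 cells (−1.22, SE 0.31, adjusted p = 0.0045) and did not pass against type 2 cells (−0.77, adjusted p = 0.071). Of 19 class I genes, 10 were higher and 1 lower than in type 1 cells, and 13 higher and 1 lower than in type 2 cells. H2-K1 stood at 2327 and 2912 CPM in mature cells of macro-metastatic, 3767 and 3294 of pre-metastatic and 4290.5 and 3129.8 of control livers, and at 877 to 1218 CPM in all libraries of the other kinds. B2m, the class I light chain, differed by 1.67 and 1.51, and Nlrc5, the class I transactivator, by 2.72 and 4.25. The lower member was Pdia3, an oxidoreductase of the class I loading complex (−0.97 and −0.68).

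Genes that define the other kinds were low. Of 14 type 1 programme genes, 13 were lower than in type 1 cells (median −2.97) and 1, Id2, was higher (0.81); against type 2 cells 3 were higher and none lower. Tlr3, a sensor of double-stranded RNA, had 1 UMI in all mature cells together, against 60.1 to 272 CPM in type 1 cells. Rab7b, a GTPase of late endosomes, differed by −3.52 (SE 0.38), and Irf8, the factor on which type 1 cells depend, by −1.73 (SE 0.42, adjusted p = 0.0030). Of 15 type 2 programme genes, 12 were lower than in type 2 cells and none higher (median −2.62), while 3 were higher and 4 lower than in type 1 cells. Mgl2, a lectin of type 2 cells, stood at 0 and 27.4 CPM in mature cells of macro-metastatic, 0 and 10.8 of pre-metastatic and 8.76 and 0 of control livers, against 143 to 1681 CPM in type 2 cells. Irf4, a factor that type 2 cells need, was higher than in type 1 cells by 2.46 (SE 0.42) and did not pass against type 2 cells (−0.81, adjusted p = 0.074).

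The type 2 gate was mixed. Siglech, which marks plasmacytoid dendritic cells, stood in it at 99.5 and 1138 CPM in macro-metastatic, 540 and 623 in pre-metastatic and 2179 and 2264 CPM in control livers, while mature cells had 11 UMIs of it, all in control replicate 1. Tcf4 (−3.22) and Spib (−2.84), which plasmacytoid cells also express, are among the genes called lower in mature than in type 2 cells.

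The counts of the other lists follow. Of 14 survival genes, 8 were higher and 1 lower than in type 1 cells, and 7 higher and 2 lower than in type 2 cells. Among them Cflar, an inhibitor of caspase-8, differed by 3.32 and 1.92, and Bcl2a1b, an antiapoptotic Bcl2 relative, by 2.75 and 2.58; the Bcl2a1 copies are near-identical, so their counts are uncertain. Of 20 transcription factors, 11 were higher and 4 lower than in type 1 cells, and 8 higher and 7 lower than in type 2 cells, with Etv3 higher than in both (2.52 and 2.27). Of 13 uptake and pattern recognition genes, 4 were higher and 3 lower than in type 1 cells, and 4 higher and 6 lower than in type 2 cells, and Ly75, the endocytic receptor DEC-205, was higher than in both (2.78 and 6.78). Among 14 interferon-stimulated genes 7 were higher and 2 lower than in type 1 cells, and 3 higher and 1 lower than in type 2 cells, with Gbp4, a guanylate-binding protein, higher than in both (3.44 and 2.09). Of 16 glycolysis genes, 1 was higher and 2 lower than in type 1 cells, and 2 higher and 3 lower than in type 2 cells, Eno3 being higher than in both (4.65 and 5.69) and Ldha lower (−1.70 and −1.15). Of 27 immediate-early and heat-shock genes, 3 were higher and 6 lower than in type 1 cells, and 4 higher and 7 lower than in type 2 cells. The cell cycle list fell against type 1 cells, with 10 of 18 genes lower and none higher, Mki67 by −1.60 (SE 0.52), and no gene passed against type 2 cells. With barcodes of over 20000 UMIs left out of every dendritic gate, 2 mature cells among them, these counts were 15 lower against type 1 and 13 lower against type 2 cells, none higher.

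Across all genes, outside the lists, the highest fold changes of well-detected genes over type 1 cells were those of Mreg, which encodes the vesicle protein melanoregulin (7.73, SE 0.42), the class Ib gene H2-M2 (7.40, SE 0.54), Flrt3, an adhesion protein (7.13, SE 0.49), and Stat4, the factor downstream of interleukin-12 (6.92, SE 0.42). Mreg stood at 263 and 258 CPM in mature cells of macro-metastatic, 535 and 323 of pre-metastatic and 552 and 594 of control livers, and at no more than 3.70 CPM in type 1 cells. Over type 2 cells Adcy6, an adenylate cyclase, Serpinb6b, a serpin (6.66, SE 0.47), Lima1, an actin-binding protein (6.21, SE 0.37), and Nck2, an adaptor to the cytoskeleton (5.88, SE 0.43), led beside Il12b and Ly75. Adcy6 stood at 563 and 334 CPM in mature cells of macro-metastatic, 255 and 118 of pre-metastatic and 105 and 228 of control livers, and had 3.21 CPM in 1 type 2 library and 0 UMIs in the others, so its fitted fold change depends on the prior count and is not given. Cd63, a tetraspanin of vesicles, differed from type 1 cells by 6.04 (SE 0.57).

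In number, mature cells did not differ between stages beyond the spread of replicates. They numbered 4 and 21 in macro-metastatic, 7 and 17 in pre-metastatic and 22 and 9 in control libraries, so that the groups held 25, 24 and 31 in that order. As shares of kept barcodes these were 0.0332% (95% Wilson interval 0.0129 to 0.0853) and 0.149% (0.0978 to 0.228) in macro-metastatic, 0.0678% (0.0329 to 0.140) and 0.160% (0.0997 to 0.256) in pre-metastatic, and 0.232% (0.153 to 0.351) and 0.0868% (0.0457 to 0.165) in control livers. The intervals cover counting error only, and replicates of 1 group differed by more than the groups did. By edgeR's quasi-likelihood test over 17 gated classes, the log2 ratio of macro-metastatic to control shares was −0.77 (SE 1.08, adjusted p = 0.646), of pre-metastatic to control −0.47 (SE 1.08, adjusted p = 0.840), and of macro-metastatic to pre-metastatic −0.30 (SE 1.09, adjusted p = 0.828). The direction changed with the rule: barcodes cut at 2 markers gave 0.95 for macro-metastatic against control.

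Type 1 and type 2 cells changed in the same libraries. Type 1 cells numbered 79 and 132 in macro-metastatic, 275 and 298 in pre-metastatic and 53 and 92 in control libraries, with a log2 ratio of pre-metastatic to control of 1.92 (SE 0.50, adjusted p = 0.0220). Type 2 cells numbered 37 and 58 in macro-metastatic, 171 and 182 in pre-metastatic and 32 and 50 in control libraries, with a ratio of 2.03 (SE 0.55, adjusted p = 0.0220). Macro-metastatic livers had fewer of both than pre-metastatic livers, with log2 ratios of −1.77 for type 1 (adjusted p = 0.0362) and −2.22 for type 2 cells (adjusted p = 0.0350). With all cells of the 3 dendritic gates as the total, the log2 ratio of pre-metastatic to control mature cells was −2.37, which did not pass the test. No direct test set the change of mature cells against that of type 1 or type 2 cells. Of all cells in the 3 dendritic gates, mature cells made up 3.33% and 9.95% in macro-metastatic, 1.55% and 3.42% in pre-metastatic and 20.6% and 5.96% in control livers, so the pre-metastatic shares lay at the low end, with 1 macro-metastatic library below one of them.

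Depth differed between stages: kept barcodes had a median of 4605 and 3269 UMIs in macro-metastatic, 2370 and 2686 in pre-metastatic and 2177 and 2271 in control libraries. With each barcode thinned to 2000 UMIs, which left out 2891 to 4420 shallower barcodes per library, 5 and 22 mature cells met the rule in macro-metastatic, 7 and 13 in pre-metastatic and 19 and 7 in control libraries, and no order of stages appeared that the replicates did not cross.

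**Figure D2:**
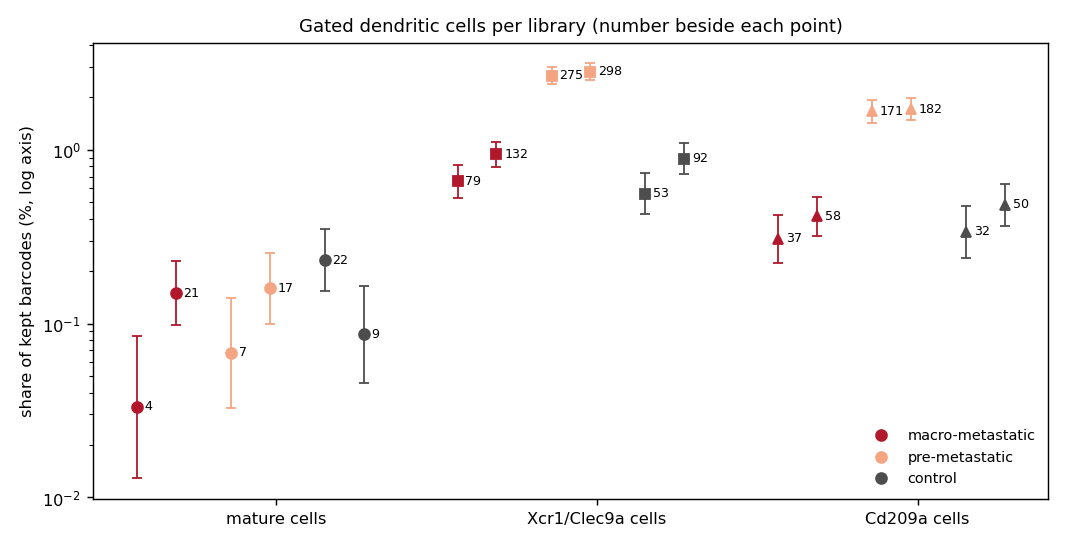
Share of kept barcodes (log axis, %) in each dendritic gate by library, with 95% Wilson intervals and the number of cells beside each point. The replicates of mature cells spread over the whole range of the stages, while type 1 and type 2 cells of pre-metastatic livers lie above those of the other livers.

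Within mature cells few genes passed a test between stages. Sums of members' UMIs were 26642 and 182375 in macro-metastatic, 39285 and 92890 in pre-metastatic and 114207 and 43773 in control libraries, so 1 UMI was worth from 5.48 to 37.5 CPM, and 1575 genes could be tested. Between macro-metastatic and control livers 2 genes (0.127%) were higher and none lower by edgeR's quasi-likelihood test, with 182 at an unadjusted p under 0.05. Gapdh, a glycolytic enzyme, stood at 1164 and 1102 CPM in macro-metastatic, 0 and 86.1 in pre-metastatic and 61.3 and 68.5 CPM in control livers, with a log2 rise of 4.10 (SE 0.63, adjusted p = 0.0282). Fosb, an immediate-early factor, stood at 638 and 1086 CPM in macro-metastatic, 50.9 and 96.9 in pre-metastatic and 70.0 and 91.4 in control livers, and rose by 3.51 (SE 0.55, adjusted p = 0.0282). In both, each macro-metastatic library lay above all others. Neither gene was called without control replicate 1, and Fosb was also not called without control replicate 2 or macro-metastatic replicate 2. The 2 barcodes over 20000 UMIs held 98 and 21 of the 201 Gapdh UMIs of macro-metastatic replicate 2 and 74 and 73 of the 198 Fosb UMIs, and without them Gapdh was still called (3.71) and Fosb was not (2.64).

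Between pre-metastatic and control livers no gene passed (0%), with 64 at an unadjusted p under 0.05 and none by DESeq2. Between macro-metastatic and pre-metastatic livers 20 genes (1.27%) were higher and 1 lower (together 1.33%). The 20 were Gapdh (4.31), Jun (3.28), Fosb (3.50), the metallothioneins Mt1 (4.77) and Mt2, which bind zinc and copper, Crip1 (3.16), the immunoproteasome subunit Psmb8 (2.83), the interferon-induced Ifitm2 (2.72) and 12 genes of ribosomal proteins. Mt2 stood at 150 and 3399.6 CPM in macro-metastatic, 25.5 and 0 in pre-metastatic and 0 and 0 CPM in control livers, and 492 of the 620 UMIs in macro-metastatic replicate 2 came from 1 barcode; its fitted value of 7.77 stands against 1 UMI in pre-metastatic livers and depends on the prior count. Dnase1l3, a secreted DNase of dendritic cells and macrophages, stood at 300 and 318 CPM in macro-metastatic livers, 1069 and 1324 in pre-metastatic and 981 and 1051 in control livers, and fell by 1.89 (SE 0.38, adjusted p = 0.0426). Jun stood at 563 and 461 CPM in macro-metastatic, 25.5 and 64.6 in pre-metastatic and 201 and 183 CPM in control livers. Without the 2 barcodes over 20000 UMIs 11 genes were called, and Fosb, Jun (2.50, adjusted p = 0.183) and Dnase1l3 (−1.59, adjusted p = 0.106) were not among them. Jun and Fosb also lost the call without either pre-metastatic library or macro-metastatic replicate 2, and Dnase1l3 without pre-metastatic replicate 2 or macro-metastatic replicate 2.

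Most of these changes were also called in other cells of the same libraries. The same macro-metastatic to pre-metastatic contrast was called, in the same direction, for 19 of the 20 higher genes in type 1, type 2 and B cells, in each fitted separately. Jun was called in none of the 3 (0.48 in type 1, 0.76 in type 2 and −0.17 in B cells), and neither was Dnase1l3 (0.34 in type 1, 0.31 in type 2 and 0.14 in B cells); whether mature cells differ from them was not tested for this contrast. Dnase1l3 was also abundant over all kept barcodes, at 758 and 1034 CPM in macro-metastatic, 949 and 1653 in pre-metastatic and 1901 and 2285 CPM in control libraries. The part of transcripts from other cells in its fall in mature cells was not tested. Over all kept barcodes Gapdh stood at 940 and 913 CPM in macro-metastatic, 76.7 and 86.3 in pre-metastatic and 113 and 135 CPM in control libraries, so this gene moved in the libraries as a whole. Fosb, Mt1, Mt2, Crip1, Psmb8 and Ifitm2 likewise stood higher over all kept barcodes in both macro-metastatic than in both pre-metastatic libraries, and Jun did not. In the same fits type 1 cells had 725 genes higher and 298 lower (12.6% of 8138) between macro-metastatic and control livers, and type 2 cells 445 and 214 (11.7% of 5625); these counts rest on more cells than those of mature cells. A longer list of 10 neutrophil transcripts, S100a8 and S100a9 among them, moved with stage as well, standing in mature cells at 450 and 400 CPM in macro-metastatic, 25.5 and 10.8 in pre-metastatic and 0 and 68.5 CPM in control livers, and its part in these results was not tested.

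**Figure D3:**
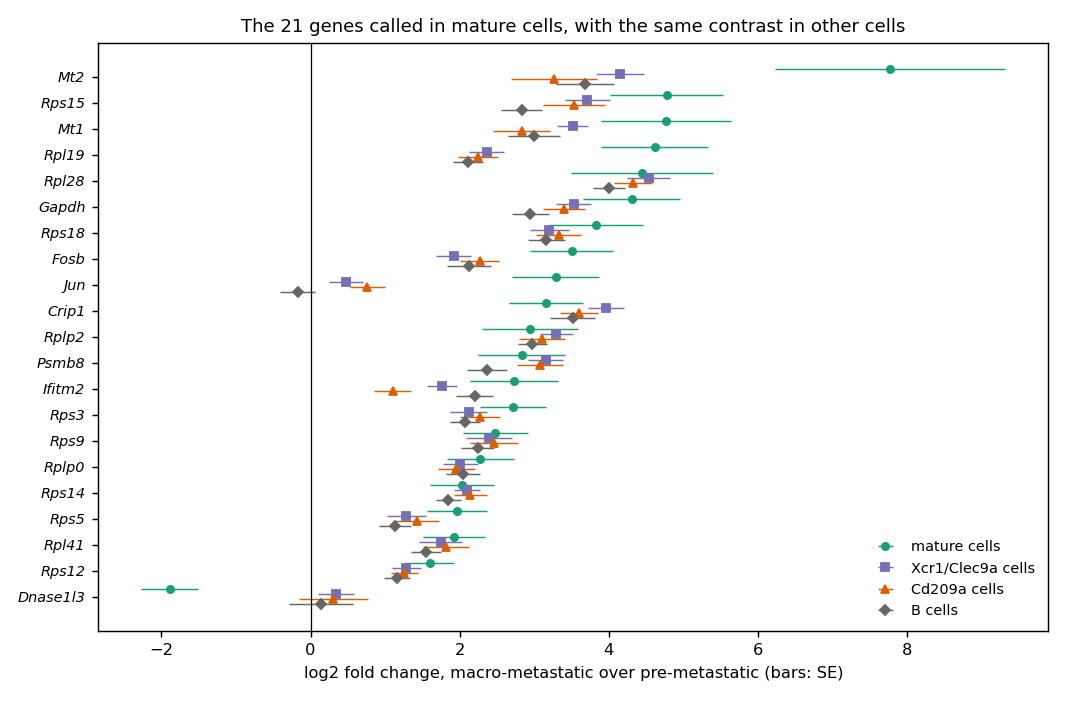
Log2 fold change of macro-metastatic over pre-metastatic livers (bars: SE) for the 21 genes called in mature cells, with the same contrast in type 1, type 2 and B cells. For Jun the other cells lie from −0.17 to 0.76, and for Dnase1l3 from 0.14 to 0.34. For the other 19 genes they lie right of 0. Mt2 in mature cells has an SE of 1.55.

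Between macro-metastatic and control livers no pathway list had more than 1 gene called in mature cells. Of 18 NF-kB genes tested none passed (median −0.30), of 11 maturation genes none (median −0.63), of 6 MHC class II genes none (median −0.45), of 16 migration genes none (median −0.28), and of 16 class I genes none (median −0.32), against a median over all genes of −0.04. H2-Aa had the largest class II difference, −1.48, at an adjusted p of 0.0603. Tmem123 differed by −0.93 (SE 0.35) at an adjusted p of 0.306, with both macro-metastatic libraries below the other 4.

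The macro-metastatic to control change was compared between mature cells and the other dendritic cells by an interaction term. Against type 1 cells 8 genes changed more upward (0.155% of 5172) and 39 more downward (0.754%) in mature cells, together 0.909%, and against type 2 cells 11 (0.213%) and 58 (1.12%), together 1.33%; 28 genes were called in both, and both share the mature cells. These counts rest on control replicate 1: without it 2 genes were called against type 1 cells and 21 against type 2 cells. Of the genes described next, Nfkbia and Bhlhe40 kept the call against type 1 cells without it, and Nfkbia, Cd83, Cflar, H2-Aa, H2-Ab1, H2-Eb1 and Cd74 kept it against type 2 cells. Without genes of the rule (Ccl22 and Ccr7, and Ccr7) the counts were 45 and 68. The 5 genes of the rule themselves stood higher with stage in the other kinds. They summed to 230 and 316 CPM in macro-metastatic and 2.95 and 56.2 CPM in control type 1 cells. In type 2 cells they summed to 590 and 386 CPM in macro-metastatic and 25.4 and 5.73 CPM in control livers. The part of maturing cells within these 2 gates in the interactions was not tested. The list counts were 4 of 12 MHC class II genes more downward and none more upward in each comparison (medians −1.25 and −1.91), 4 and 6 of 20 NF-kB genes (medians −1.06 and −1.37), 5 and 5 of 11 maturation genes (medians −2.25 and −2.58), and 2 and 4 of 14 survival genes (medians −0.95 and −1.24), against medians over all genes of −0.02 and −0.02.

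Several NF-kB pathway genes rose in type 1 and type 2 cells of macro-metastatic livers over control livers, while none of those tested passed within mature cells. Nfkbia stood at 1576 and 1042 CPM in mature cells of macro-metastatic, 840 and 1604 of pre-metastatic and 1865 and 1850.5 of control livers. In type 1 cells it stood at 1654 and 1393 CPM in macro-metastatic, 398 and 502 in pre-metastatic and 572 and 354 in control livers, and in type 2 cells at 3090.2 and 2381 CPM in macro-metastatic, 1162 and 1576 in pre-metastatic and 814 and 665 in control livers. Macro-metastatic libraries lay above control libraries in both of those kinds and below them in mature cells. The macro-metastatic to control log2 change was −0.56 in mature cells (adjusted p = 0.61), 1.88 in type 1 and 2.11 in type 2 cells, and the interaction was −2.57 (SE 0.34, adjusted p = 0.00041) and −2.77 (SE 0.35, adjusted p = 5.6e-05). Over all kept barcodes Nfkbia stood at 3454 and 2504 CPM in macro-metastatic, 1023 and 1235 in pre-metastatic and 636 and 594 CPM in control libraries, so its rise was not particular to dendritic cells.

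Relb, whose level in mature cells is given above, rose by 2.46 in type 1 and 2.15 in type 2 cells, differed by −0.22 in mature cells (adjusted p = 0.89), and had interactions of −2.88 (SE 0.50) and −2.58 (SE 0.63). Even so, its macro-metastatic level in type 1 cells (130 and 103 CPM) remained below that of every mature library. Bhlhe40, a repressor induced by activation, stood at 1426 and 822 CPM in macro-metastatic, 789 and 1238 in pre-metastatic and 1086 and 1531 in control livers in mature cells, and at 510 and 405 CPM in macro-metastatic, 46.7 and 109 in pre-metastatic and 47.2 and 83.5 in control livers in type 1 cells, with interactions of −3.33 (SE 0.42) and −2.66 (SE 0.41). Tnfaip3 (−1.97 and −1.62), Birc3 (−2.07 and −1.85), Cflar (−2.58 and −3.27), Icam1, an adhesion ligand (−2.37 and −2.26), and Cd83 (−1.80 and −3.17) had interactions of the same sign in both comparisons. With barcodes over 20000 UMIs left out of every dendritic gate, Tnfaip3 (adjusted p = 0.0577 and 0.136), Birc3 (0.113 and 0.170) and Icam1 (0.0664 and 0.0866) were called in neither comparison. Cd83 was then not called against type 1 cells (0.102), and Relb was not called against type 2 cells (0.0724). Without Siglech-bearing barcodes in the type 2 gate Relb (0.284), Tnfaip3 (0.140), Birc3 (0.153) and Icam1 (0.103) were not called against type 2 cells. Over all kept barcodes Relb stood at 77.3 and 68.6 CPM in macro-metastatic and 28.8 and 28.3 CPM in control libraries. Bhlhe40, Tnfaip3, Birc3, Cflar, Icam1 and Cd83 likewise stood higher there in macro-metastatic libraries, so these genes moved in the libraries as a whole. In B cells Relb (0.79), Bhlhe40 (1.53) and Icam1 (0.79) were also called higher, and Tnfaip3, Birc3, Cflar and Cd83 were not called.

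**Figure D4:**
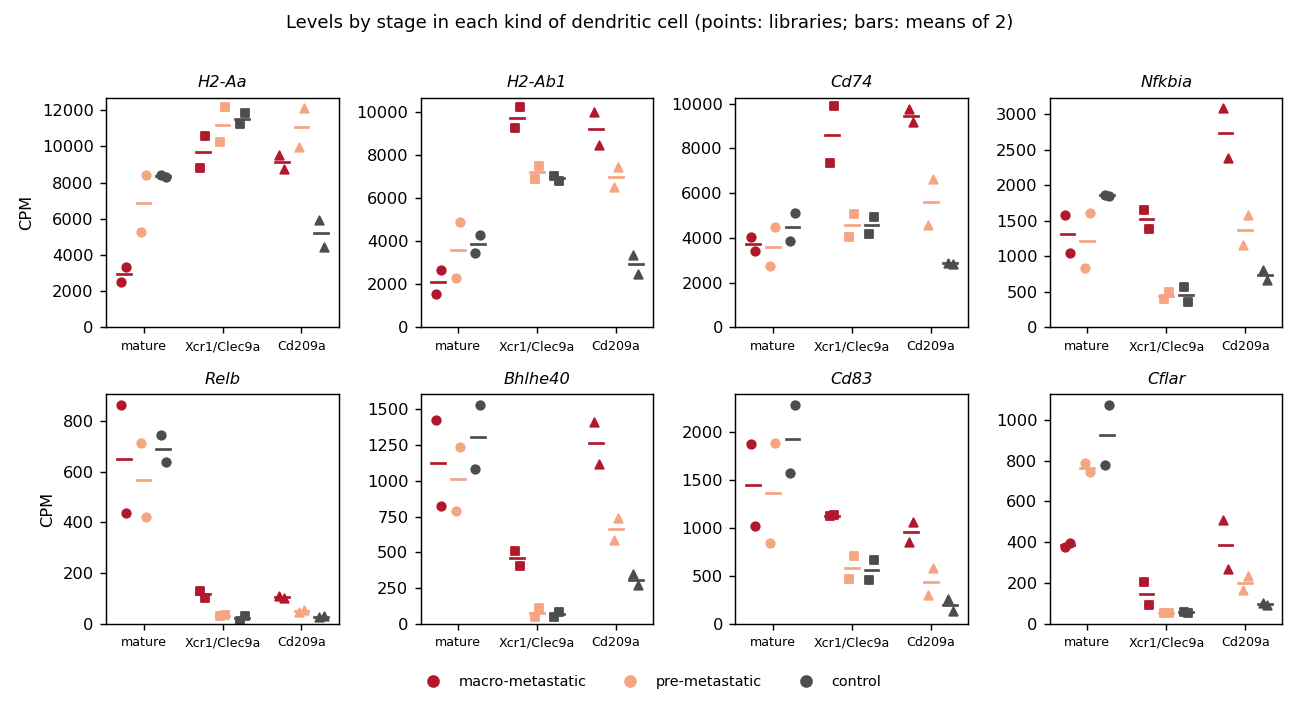
CPM of 8 genes by stage in mature, Xcr1/Clec9a and Cd209a cells, 1 point per library and a bar at the mean of 2. Nfkbia, Relb, Bhlhe40 and Cd83 are higher in macro-metastatic than in control libraries of both other kinds, with no such shift in mature cells, and H2-Aa is lower in macro-metastatic mature cells.

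The class II genes also diverged. H2-Aa stood at 2515 and 3345 CPM in mature cells of macro-metastatic, 5269 and 8429 of pre-metastatic and 8406 and 8293 of control livers, with both macro-metastatic values below the rest. It stood at 8784 and 10578 CPM in macro-metastatic, 10220.1 and 12171 in pre-metastatic and 11206 and 11818 in control livers in type 1 cells, and at 9540.2 and 8755 CPM in macro-metastatic, 9975 and 12116 in pre-metastatic and 5942 and 4453 in control livers in type 2 cells. The interactions were −1.51 (SE 0.28, adjusted p = 0.0092) and −2.68 (SE 0.29, adjusted p = 1.2e-05). Cd74, the invariant chain that escorts class II molecules, stood at 4054 and 3427 CPM in macro-metastatic, 2724 and 4499.9 in pre-metastatic and 3870.2 and 5094 in control livers in mature cells and at 7325 and 9882 CPM in macro-metastatic, 4053 and 5072 in pre-metastatic and 4169.8 and 4946 in control livers in type 1 cells. It rose by 1.06 in type 1 and 1.94 in type 2 cells and differed by −0.26 in mature cells (adjusted p = 0.82), with interactions of −1.46 and −2.34. H2-Ab1 (−1.57 and −2.82) and H2-Eb1 (−1.53 and −2.88) had the same sign. Over all kept barcodes Cd74 stood at 1605 and 2990 CPM in macro-metastatic and 794 and 666 CPM in control libraries. H2-Ab1 and H2-Eb1 likewise stood higher there in macro-metastatic libraries, and H2-Aa overlapped. In B cells Cd74 (0.69), H2-Ab1 (0.61) and H2-Eb1 (0.86) were also called higher between these stages, and H2-Aa (−0.02) was not called.

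These calls rest unevenly on deep barcodes. With barcodes over 20000 UMIs left out of every dendritic gate, 2 mature cells among them, 16 genes were called against type 1 cells (1 more upward, 15 more downward), all of them among the first 47, and 44 against type 2 cells (5 and 39). None of the class II genes was then called against type 1 cells, where H2-Aa, at 2515 and 4653 CPM in macro-metastatic mature cells, had an adjusted p of 0.212, while all 4 were called against type 2 cells. Several genes that moved more upward had nearly all their UMIs in the deepest barcode, which held 22 of 22 UMIs of Mcm6 and 232 of 243 of Dnajb1 in its library. With Siglech-bearing barcodes left out of the type 2 gate, 26 genes were called, all more downward, the 4 class II genes among them. For the pre-metastatic to control change no interaction passed against either kind (0%), with 274 and 409 genes at an unadjusted p under 0.05 and 0 and 8 called by DESeq2. Mature cells were deepest in macro-metastatic livers, with median UMIs per cell of 6650 there, 5284 in pre-metastatic and 4607 in control livers, and the part of depth in these results was not tested.

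Single mature cells varied within each stage. Per 10000 UMIs of a cell, Tmem123 had a median of 28.9 in macro-metastatic, 73.7 in pre-metastatic and 84.7 in control livers, so the macro-metastatic median was the lowest. The median of H2-Aa was 20.3 in macro-metastatic, 61.3 in pre-metastatic and 39.2 in control livers, that of Ccl5 24.99 in macro-metastatic, 2.56 in pre-metastatic and 36.9 in control livers, and that of Ccr7, a gene of the rule, 27.8 in macro-metastatic, 17.0 in pre-metastatic and 15.4 in control livers. Every stage held cells with no H2-Aa or Ccl5 beside cells with over 150 UMIs of them per 10000, so the library sums mix cells of unlike make-up. H2-Aa was detected in 19 of 25 cells of macro-metastatic, 23 of 24 of pre-metastatic and 29 of 31 of control livers. Il12b was detected in 10 of 25 cells of macro-metastatic, 10 of 24 of pre-metastatic and 14 of 31 of control livers, at up to 173 UMIs per 10000. Nfkbia was detected in all 80 cells, between 2.17 and 50.3 UMIs per 10000.

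**Figure D5:**
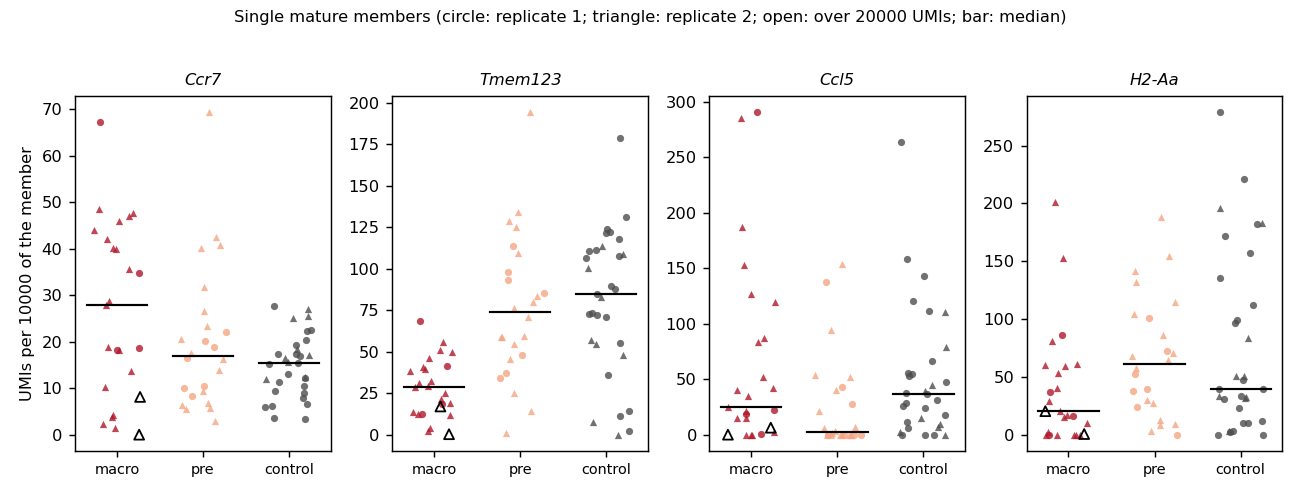
UMIs per 10000 of the cell for 4 genes in each of the 80 mature cells by stage, with circles for replicate 1, triangles for replicate 2, open symbols for the 2 cells over 20000 UMIs and bars at medians. The macro-metastatic cells lie lower for Tmem123, and for Ccl5 and H2-Aa every stage holds cells at 0. The highest Ccl5 values are 291 in macro-metastatic, 153 in pre-metastatic and 264 in control livers, and those of H2-Aa 202, 188 and 279 in that order.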

How the data were processed

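The deposited matrices, 1 per library, hold counts of UMIs per gene and barcode, not normalized. The authors used CASAVA 1.8 and UMI-tools with build mm10, per the submitters' processing notes; which aligner and annotation is not given in the sources used here. Together 6 libraries held 71908 barcodes and 31253 features. The members, gates and gene lists were chosen with earlier results of these data known.

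Counts were summed per library over the cells of a gate and tested with edgeR 4.0.16 (quasi-likelihood, filterByExpr, TMM, Benjamini-Hochberg, threshold 0.05) in R 4.3.3. Tests between stages used all 6 libraries. Tests between kinds of cell and interactions kept the library as a block. Numbers of cells were tested against kept barcodes. The 3 kinds of gene test were also tested on simulated counts. Doublets were scored with scanpy 1.11.5 (scrublet, expected share 6%). CPM come from unscaled sums, and low sums limit precision: 1 UMI was worth up to 37.5 CPM.

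Genes named in each comparison were, among those called, up to 10 of the biggest changes in each direction. They needed an average log2 CPM of 5 or more and at least 50% of the pooled CPM of all kept barcodes. Between stages the libraries of the 2 groups also could not overlap, and between kinds all 6 libraries needed 1 sign. Neither of these last conditions was set for interactions. Mitochondrial, ribosomal, haemoglobin, immunoglobulin, Gm, Rik and gate genes were left out. Up to 4 members of each list were added by smallest adjusted p. Anxa1, Cd80, Ifitm2, Igfbp4, Map3k14, Pdia3, Rhoh, Spib, Tnf, Zbtb46 and the ribosomal genes counted between stages fall outside this rule and were named after their values were seen.

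Alternatives were other gates, thinning, doublets left out, DESeq2 1.42.0, RLE factors, no filter, a replicate block and each library left out. Leaving out barcodes over 20000 UMIs from every gate, and Siglech-bearing barcodes from the type 2 gate, was chosen after seeing the data.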

Additional observations from a re-analysis of the deposited data

Results flagged for a closer look

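The macro-metastatic to control change differed between mature cells and type 1 cells for 47 genes and between mature and type 2 cells for 69 genes, by the interaction term of edgeR's quasi-likelihood test at an adjusted p under 0.05. The values below are fitted log2 differences; those of Mcm6, Psat1, Pclaf, Shmt2 and Abcb1b (0 UMIs in control mature cells) and Zfp366 (0 UMIs in control type 2 cells) depend on the prior count.

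Against type 1 cells, 8 genes changed more upward in mature cells, among them Mcm6 (9.71), Psat1 (9.65), Pclaf (9.64), Uhrf1 (5.15), Ccnd1 (4.1) and Dnajb1 (3.17), which encode replication factors, a serine synthesis enzyme, a cyclin and a heat-shock co-chaperone. One barcode of macro-metastatic replicate 2 held 22 of 22 UMIs of Mcm6, 16 of 16 of Pclaf, 24 of 25 of Psat1 and 232 of 243 of Dnajb1 in that library's mature cells. The other 2 were Egr1 (5.50), with 297 of 361 UMIs in that barcode, and Igfbp4 (4.14), with 0 of 33. With barcodes over 20000 UMIs left out of every dendritic gate, Igfbp4 alone of the 8 was still called (adjusted p = 0.0367). Among the 39 that changed more downward were Tnfsf9 (−5.27), Ehd1 (−4.21), Il12b (−4.14), Bhlhe40 (−3.33), H2bc4 (−3.26), Mxd1 (−3.06), Sowahc (−3.04), Dusp5 (−2.97), Relb (−2.88) and Hsd17b11 (−2.65), of which Ehd1 (adjusted p = 0.109), Sowahc (0.149) and H2bc4 (0.0577) were not called without those deep barcodes.

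Against type 2 cells, 11 genes changed more upward, among them Abcb1b (9.27), Shmt2 (9.23), Lgals1 (4.32), Dnajb1 (3.8), Irgm1 (3.76) and Ybx3 (2.29), and the same barcode held 30 of 31 UMIs of Shmt2 and 152 of 177 of Lgals1. None of these 6 was called with barcodes over 20000 UMIs left out of every dendritic gate. Among the 58 that changed more downward were Zfp366 (−8.53), Ehd1 (−5.98), Bcl2a1a (−4.86), Bcl2a1d (−4.49), Cd40 (−4.12), Itgax (−3.98), Slc66a2 (−3.83), Tnip3 (−3.8), Rgs1 (−3.78) and Mxd1 (−3.53), of which Cd40 (adjusted p = 0.101) and Slc66a2 (0.0724) were not called without those deep barcodes. Rgs1, a regulator of chemokine receptor signalling, stood at 3228 and 1826 CPM in macro-metastatic, 1527 and 2584 in pre-metastatic and 2986 and 3038 CPM in control mature cells, against 3969 and 2337 CPM in macro-metastatic, 481 and 640 in pre-metastatic and 339 and 373 CPM in control type 2 cells. Zfp366, a zinc-finger protein of dendritic cells, stood at 263 and 93.2 CPM in macro-metastatic, 535 and 205 in pre-metastatic and 166 and 206 CPM in control mature cells, against 73.8 and 46.8 CPM in macro-metastatic, 21.5 and 22.1 in pre-metastatic and 0 and 0 CPM in control type 2 cells.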

How the results depend on the processing

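Counts of genes between kinds of cell stayed within 1.5 times under every alternative (leaving out 1 library: 1460 to 1724 against type 1 cells and 1345 to 1610 against type 2 cells), and 70 of 76 and 65 of 70 named genes were called in every fit. Of the named interaction genes, 2 of 33 against type 1 cells and 10 of 37 against type 2 cells were called in every fit, and of the named genes between stages 0 of 2 (macro-metastatic against control) and 2 of 8 (macro-metastatic against pre-metastatic). Between stages the counts moved widely, and the cause was not tested except where fewer cells or genes entered.

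For the number of mature cells, macro-metastatic against control (−0.77) became 0.0900 when thinned to 1000 UMIs and 0.95 with 2 markers, and ran from −2.22 to 0.0874 with 1 library left out. Pre-metastatic against control (−0.47) became −2.37 over gated dendritic cells, and ran from −1.21 to 0.39 with 1 library left out. Macro-metastatic against pre-metastatic (−0.30) became 0.28 when thinned to 1000 UMIs, 1.02 with 2 markers, 0.0519 with no lineage exclusion, 1.44 over gated dendritic cells and 0.21 with TMM factors, and ran from −1.74 to 0.44.

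Genes between macro-metastatic and control mature cells (2) became 4 with 4 markers, 9 without barcodes over 20000 UMIs, 11 by DESeq2, 37 with a replicate block, 64 with no filter and 1 with only the 2 groups, and 0 to 83 with 1 library left out. Pre-metastatic against control (0) became 5 with no filter and 0 to 6. Macro-metastatic against pre-metastatic (21) became 11 with 4 markers, 11 without barcodes over 20000 UMIs, 39 with a replicate block, 70 with no filter, 11 with only the 2 groups, and 2 to 101.

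Interactions for macro-metastatic livers against type 1 cells (47) became 20 with 4 markers, 16 without barcodes over 20000 UMIs, 89 with no filter, and 2 (without control replicate 1) to 94. Those against type 2 cells (69) became 44 without barcodes over 20000 UMIs, 135 with no filter, 26 without Siglech barcodes, and 21 to 83. For pre-metastatic livers they became, against type 1 cells (0), 1 without barcodes over 20000 UMIs, 8 with no filter, 2 with gates at 1 UMI and 0 to 3, and against type 2 cells (0), 2 with 4 markers, 1 without doublets, 1 without barcodes over 20000 UMIs, 8 by DESeq2, 2 with RLE factors, 35 with no filter and 0 to 8. RLE factors moved the median of all genes by 0.16 in the macro-metastatic interaction with type 2 cells and by −0.11 between mature and type 2 cells.

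Genes that changed sign were Clec10a against type 1 cells (−4.98 with 4 markers), Ppt1 (−1.06 with 4 markers) and Siglech (5.84 without Siglech barcodes) against type 2 cells. The sign of Siglech was fixed by that setting, which leaves no Siglech UMI in the type 2 gate. In the interactions with type 1 cells, with 1 library left out, Ccnd1 ran from −6.49 to 4.69, Dnajb1 from −0.61 to 4.62 and Egr1 from −0.73 to 7.08, each lowest without macro-metastatic replicate 2. Dnajb1 was −0.89 with 4 markers and −0.0535 without barcodes over 20000 UMIs there, and −0.33 against type 2 cells with 4 markers. The difference of replicate 1 from replicate 2 was correlated over genes between groups. In mature cells the correlations were 0.022 (pre-metastatic with control), 0.058 (macro-metastatic with control) and 0.152 (macro-metastatic with pre-metastatic). Over all kept barcodes they were 0.225, −0.058 and 0.157 in that order. Such values cannot settle whether the replicate numbers pair the libraries. With 4 to 22 cells in a library, an undetected difference is not an absent one.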

Other observations

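Of the 69 barcodes that the 4 excluded genes removed, those with a UMI of Stab2, an endothelial gene, numbered 5 and 10 in macro-metastatic, 2 and 9 in pre-metastatic and 14 and 7 in control libraries, and those with Cd3e, a T cell gene, 3 and 2 in macro-metastatic, 1 and 1 in pre-metastatic and 7 and 0 in control libraries. The 12 hepatocyte transcripts of a list of abundant genes summed to 75.1 and 230 CPM in mature cells of macro-metastatic, 178 and 1163 of pre-metastatic and 560 and 206 of control livers.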
